A study of Homo sapiens with 6 samples.

Results

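The transcriptome described here is that of HEK293 cells carrying a control shRNA in control conditioned medium, the untreated state of a study of Wnt3a and the histone methyltransferase SET8. HEK293 is an adherent human line made from embryonic kidney cells with adenovirus DNA. The description rests on the 2 arrays, of 6 in all, that the labels place in this group. No measured value assigned them to it, but the group was chosen for description with earlier results of these data known. All 6 arrays carry RNA of cells transfected for about 40 hours and then given conditioned medium for 7 hours. Each of the other groups has 2 arrays: cells with the control shRNA given Wnt3a medium, and cells with an shRNA against SET8 given Wnt3a medium. A state without transfection or without conditioned medium was not analysed here, so the baseline is that of transfected cells in conditioned medium. All arrays come from a single cell line, and no label tells whether the replicates were grown apart, so their spread may be technical.

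A cell line keeps parts of the gene programme of the cell it came from. Transcription factors of a lineage are usually kept longer than the secreted proteins, channels and transporters of its mature cells. Receptors set which signals a line can answer, the pathway genes behind them carry the signal inwards, and chromatin enzymes set which genes can respond. HEK293 cells are known for an unsettled origin, since kidney, adrenal and neuronal traits have all been described in them.

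Each gene was measured by probe sets of 3 short probes, and the array also carries a random control set of 1994 probes that match no gene. The random set read 26.9 intensity units on array 1 and 28.6 on array 2, or 4.75 and 4.84 on the log2 scale. A gene was called detected where its log2 intensity lay at least 1 unit (2-fold) above that value on both arrays, not detected where it lay under 1 unit above on both, and split otherwise. A stricter level of 3 log2 units (8-fold) on both arrays is given beside it. Pairs of values below are log2 units over the random set on arrays 1 and 2, written "over random". Signals of different genes come from different probes, so their order is an order of array signals and not of transcript numbers.

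Of 23595 genes, 16378 (69.4%) were detected, 11453 (48.5%) lay at least 8-fold over random, 4554 (19.3%) were not detected and 2663 (11.3%) were split. The median gene lay 3.10 log2 units over random. Replicate arrays correlated at 0.972 across genes, with a median SD of 0.27 log2 units (n = 2). A difference of over 2-fold between the arrays was seen in 12.7% of all genes, in 3.42% of genes past 8-fold and in 53.4% of split genes. Since split genes sit where replicate error is as large as the call, they are neither counted as present nor as absent.

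Gene families of known behaviour show how far the calls can be read. All 79 cytosolic ribosomal protein genes, with a median of 9.63 log2 units over random, and all 14 proteasome core genes, with a median of 8.70, were past 8-fold. Of 85 respiratory chain genes 81 were detected. COX6A2, a muscle isoform of a cytochrome oxidase subunit, was not, and read 0.75 and 0.84 log2 units over random. Of 366 olfactory receptor genes, which only sensory neurons of the nose are known to use widely, 36 (9.84%) were detected and 2 (0.546%) passed 8-fold. On array 1 alone 72 of them would be called and on array 2 alone 59. Bitter taste receptors gave 1 of 23, and beta-defensins 7 of 32 with none past 8-fold. Keratin-associated proteins, which build hair, were detected in 38 of 76 genes and passed 8-fold in 18. The 2-fold call is therefore open to signal of families thought silent in such cells, and a detected gene under 8-fold is weakly supported. The 8-fold level is not free of such signal either, since 23.7% of the keratin-associated protein genes passed it. In the other direction ATRX, a chromatin remodeller found in most cell types, read -0.05 and -0.16 over random, so a gene at background on this array is not shown to be absent. RNA came from whole cultures, so a weak signal in every cell and a strong signal in few cells cannot be told apart.

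**Figure D1:**
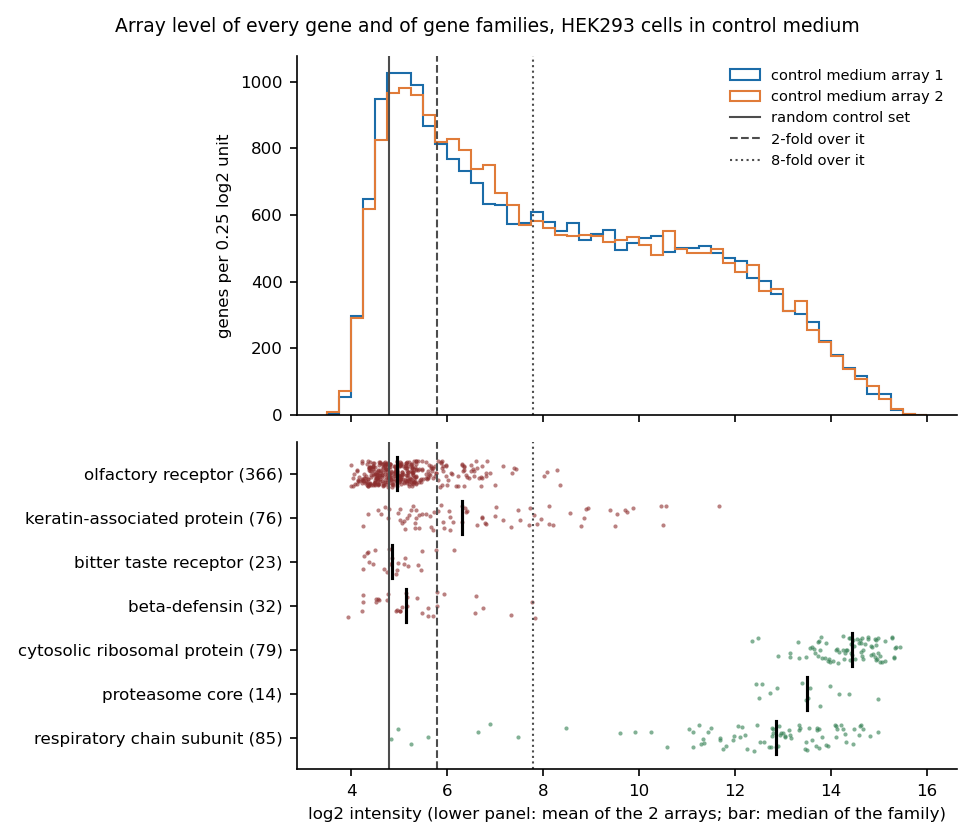
Upper panel: number of genes per 0.25 log2 unit of intensity on control medium array 1 (blue) and array 2 (orange), with the random control set (solid line) and levels 2-fold (dashed) and 8-fold (dotted) over it, drawn at the mean of both arrays. Lower panel: mean log2 intensity of each member of 7 families, with the number of members and a black bar at the median. Ribosomal and proteasome genes all lie right of the 8-fold line, while most olfactory and bitter taste receptors lie near the random set, and 18 of 76 keratin-associated protein genes pass the 8-fold line on both arrays.

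Among the brightest signals, uncharacterised loci left aside, were those of several ribosomal protein and translation factor genes. TUFM, the mitochondrial translation elongation factor (chromosome 16, 28761612 to 28765144, hg18), read 15.36 and 15.55 on the log2 intensity scale. PKM, the pyruvate kinase of glycolysis, read 15.55 and 15.35. RPL13, a protein of the large ribosomal subunit, read 15.41 and 15.46. USP11, a deubiquitinating enzyme, read 15.24 and 15.55. PLD3, a lysosomal nuclease, read 15.53 and 15.10. MCM7, a subunit of the replicative helicase, read 15.35 and 15.21. The 20 highest genes with an established name also held EEF1A1, RPL13A, RPS28, RPL28, FARSA, RPL7A, CUTA and PFN1. Their means ran from 15.24 for PFN1 to 15.45 for TUFM, a span smaller than the difference between the arrays for PLD3, so the order within the 20 is not resolved. A further 4 are pseudogenes, namely EEF1A1P12, EEF1A1P9, EEF1A1P11 and RPL13AP22. Their sequences are near copies of EEF1A1 and RPL13A, so their signal cannot be assigned to them. Chromosome 19 held 44 of the genes in the top 1% by signal (18.6%), against 6.33% of all genes.

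SETD8, now KMT5A, is the gene the study's shRNA targets, and serves as a check of the labels. Its brighter probe set read 11.03 and 10.75 on the control medium arrays. With Wnt3a medium it read 11.20 and 10.53, and after SET8 shRNA 8.97 and 9.65. Both control medium arrays thus lay above both SET8 shRNA arrays.

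All 22 listed transcription factors and signals of nephron progenitors and the ureteric bud were detected, against 69.4% of all genes, and 14 of them (63.6%) passed 8-fold, against 48.5%. It was the only lineage list with every member detected at 2-fold, while at 8-fold the share of epithelial genes (66.7%) was slightly higher. The list's median was 3.82 log2 units over random. Members of the gene lists were chosen with earlier results of these data known. HOXD11 and HOXA11, which pattern the metanephric kidney, read 7.69 and 7.31, and 6.10 and 5.72 over random. GATA3, a factor of the ureteric bud, read 5.87 and 5.69. SIX2, which marks self-renewing nephron progenitors, read 4.99 and 4.91 over random. SALL1 read 4.73 and 4.42, and WT1, needed for kidney and gonad, 4.08 and 3.61. The classical PAX genes were weaker. PAX2 read 2.73 and 2.48 over random and PAX8 2.07 and 2.55, both under 8-fold. GDNF, the ligand that draws out the ureteric bud, read 1.99 and 2.02, MEOX1 1.79 and 1.66, WNT9B 1.76 and 1.68 and EYA1 1.57 and 1.57. Of the other members FOXD1, EMX2, WNT4, LHX1, CITED1, OSR1, GFRA1 and RET were detected. For PAX8, RET and WNT9B at least 1 further probe set of the gene was not detected or was split.

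Of 21 listed genes of filtration, transport and hormone handling 4 (19.0%) were detected, 7 were split and 10 were not detected, and the median lay 0.68 log2 units over random. On array 1 alone the count was 10 of 21 and on array 2 alone 5 of 21. The only member past 8-fold was AQP3, a water and glycerol channel, at 5.08 and 4.91 over random. SLC34A1, the phosphate carrier of the proximal tubule, read 1.75 and 3.11, AQP1 3.07 and 1.78, and LRP2 (megalin) 2.71 and 2.07. The podocyte gene NPHS1 read 0.92 and 1.69 and was split. UMOD, the main protein of the thick ascending limb, read 1.57 and 0.17, and SLC12A1, the salt carrier of the same segment, 1.04 and -0.33. SCNN1A (1.78 and 0.97), SLC5A2 (1.65 and 0.76), CALB1 (1.43 and 0.87) and CDH16 (1.42 and 0.56) were split as well. AQP2, the vasopressin-regulated water channel, read 0.72 and 0.64 over random. SLC22A8 (0.49 and -0.29), KL (-0.28 and -0.06) and SLC12A3 (-0.58 and -0.25) were at the random level, and SCNN1B, CUBN, PVALB and SLC22A6 were not detected either.

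Adrenal genes were above background in part, and less often than all genes. In the adrenal cortex list 6 of 12 genes were detected and 3 passed 8-fold. FDXR and FDX1, which pass electrons to mitochondrial P450 enzymes in many tissues, read 9.68 and 9.74, and 6.21 and 5.91 over random. NR0B1 (DAX1), a nuclear receptor of the adrenal and gonadal axis, read 5.36 and 6.35. NR5A1 (SF1), the master factor of steroid-making cells, was weaker at 2.09 and 1.96, and CYP11A1, the first enzyme of steroid synthesis, read 1.93 and 1.96. The enzymes that follow were split or not detected: CYP17A1 read 0.74 and 2.05, CYP21A2 0.02 and 1.65, HSD3B2 0.87 and 0.55 and CYP11B1 0.11 and 0.66. STAR, which carries cholesterol into mitochondria, read 1.16 and 0.25, and the ACTH receptor MC2R 0.60 and 1.32.

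Of 16 chromaffin and sympathetic genes 8 were detected and 5 passed 8-fold. GATA2, which also acts in blood and placenta, read 6.92 and 7.37 over random, and HAND2, a factor of sympathetic neurons and limbs, 5.19 and 5.27. The granins of secretory vesicles were present, CHGA at 3.74 and 4.47 and CHGB at 3.73 and 4.03. PNMT, which makes adrenaline, read 2.80 and 2.57. The steps before it were near the random level: TH read 0.32 and 1.15, DDC 0.47 and -0.19 and DBH 0.76 and 0.33. PHOX2A, a factor of noradrenergic neurons, was split at 0.80 and 1.02. SLC18A1 (1.12 and 0.78) and SLC18A2 (1.20 and 0.96), the vesicle carriers of amines, were split.

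Neuronal genes were uneven, with bright members of the cytoskeleton and of vesicles beside members at background. In all 16 of 24 (66.7%) were detected and 11 (45.8%) passed 8-fold, shares close to those of all genes. TUBB3, the neuronal beta-tubulin, read 9.02 and 8.70 over random. UCHL1, an abundant ubiquitin hydrolase of neurons, read 8.76 and 8.90. SYP (synaptophysin), a synaptic vesicle protein, read 8.17 and 7.72. The neurofilaments NEFL and NEFM read 6.79 and 6.59, and 6.48 and 6.37. The RNA-binding protein ELAVL3 was low, at 1.98 and 1.81. SNAP25, which fuses vesicles with the membrane, read -0.08 and -0.38, SYT1, the calcium sensor of release, -0.08 and -0.15, and STMN2, a microtubule regulator of growing axons, -0.51 and -0.79. DCX, of migrating neurons, read -0.78 and 0.74. INA was far apart between arrays at 2.91 and -0.07, STMN4 read 1.26 and 0.86 and ELAVL4 0.00 and 1.21. So the neuronal set was not carried as a whole, and its vesicle genes lay at both ends of the range. Among glial genes 5 of 10 were detected, and on array 2 alone 8 of 10. OLIG2, a factor of oligodendrocyte and motor neuron precursors, read 6.33 and 6.19 over random, MBP 6.59 and 6.94 and CNP 6.95 and 6.92. GFAP read -0.10 and 2.75, SOX10 1.16 and 0.99, MOG 0.96 and 1.06 and S100B 0.59 and 1.14, and all 4 were split. Not every probe set of MBP and MAP2 was detected.

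Epithelial and mesenchymal genes were bright in the same RNA. Of 21 epithelial genes 20 (95.2%) were detected and 14 passed 8-fold. The simple epithelial keratins KRT8, KRT18 and KRT19 read 9.77 and 9.72, 8.24 and 8.67, and 7.92 and 7.96 over random. CLDN4, a tight junction protein, read 6.26 and 6.68 and EPCAM, a surface adhesion molecule, 5.92 and 6.03. CDH1 (E-cadherin), the defining junction protein of epithelia, was weaker at 2.58 and 2.64. KRT14 read 7.92 and 7.74, though keratins share sequence and a probe can take signal from a close relative, and its usual partner KRT5 read 1.60 and 3.10. OCLN read 2.29 and 1.63, GRHL2 1.04 and 1.23, and the intestinal keratin KRT20 0.24 and 0.27, the only member not detected. Of 20 mesenchymal genes 17 (85.0%) were detected and 10 passed 8-fold. VIM, the mesenchymal intermediate filament, read 9.67 and 9.22 over random, CDH2 (N-cadherin) 7.94 and 7.65, FN1 7.71 and 7.54 and COL1A1 7.60 and 7.43. Among the other fibroblast markers COL3A1 read 3.70 and 3.40, COL1A2, the partner chain of COL1A1, 2.97 and 2.65, DCN 2.49 and 2.91 and PDGFRB 1.94 and 1.09. Another probe set of COL1A2 was brighter in control medium, at 8.28 and 7.87 on the log2 intensity scale, which is past 8-fold on both arrays. POSTN (0.72 and 1.84) and LUM (1.45 and 0.71) were split, and PDGFRA read 0.47 and 0.53.

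Genes of endothelium, blood, muscle, liver and germ cells were mostly weak. None of 12 endothelial genes passed 8-fold, and 5 were detected, against 10 on array 1 alone. NOS3 read 3.09 and 2.70 over random, ESAM 3.41 and 2.22, VWF 2.15 and 2.86, CLDN5 2.49 and 1.79 and CDH5 2.38 and 1.82. PECAM1 (2.27 and 0.09), ERG (2.49 and 0.83), TEK (0.01 and 2.27), TIE1 (1.40 and 0.87), KDR (1.15 and 0.90) and FLT1 (1.85 and -0.14) were split, and EMCN read 0.19 and 0.43. In the blood list 8 of 15 were detected and 2 passed 8-fold. These were CD68, a lysosomal protein not confined to macrophages, at 5.09 and 5.13, and HBA1, an alpha-globin with near-identical copies, at 4.15 and 5.03. PTPRC (CD45), carried by nearly all white cells, read 0.17 and 0.31 and HBB -0.01 and 0.95. ITGAM (2.94 and 2.06), CD14 (2.70 and 2.11) and CD3E (1.51 and 2.19) were detected under 8-fold, and SPI1 (1.61 and 0.46), TAL1 (1.74 and 0.58), LYZ (0.84 and 1.57) and MPO (0.56 and 1.22) were split. Muscle genes were detected in 7 of 11. ACTC1, cardiac actin, read 7.81 and 7.52 over random, CKM, muscle creatine kinase, 6.40 and 6.13 and TNNI3 3.20 and 3.86. MYH3 read 2.0 and 2.65, DES 1.83 and 2.02 and MYOD1 1.20 and 1.95. MYOG (1.94 and 0.11) and MYF5 (1.13 and 0.60) were split, and MYH7 (0.28 and 0.67) and TNNT2 (0.13 and -0.28) were not detected.

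Of 11 liver genes 2 (18.2%) were detected, both past 8-fold, and on array 2 alone 6 of 11. These 2 are factors of early endoderm, FOXA2 at 5.96 and 6.27 over random and FOXA1 at 3.58 and 3.21. ALB, serum albumin, read 0.51 and 1.04, HNF4A 0.97 and 2.26, TTR 0.11 and 1.84, APOA1 1.20 and 0.52 and APOB -0.90 and 1.84, all split. SERPINA1 (0.07 and 0.44), CYP3A4 (0.53 and -0.14) and AFP, the fetal serum protein (-0.69 and -0.90), were not detected. Of 14 pluripotency and early embryo genes 8 were detected and 3 passed 8-fold. KLF4, also an epithelial factor, read 5.95 and 4.89 over random, LIN28B, a fetal RNA-binding protein, 4.84 and 3.83 and SOX2 4.32 and 4.19. DNMT3B read 4.51 and 2.81 and POU5F1, which has expressed pseudogene copies, 2.50 and 2.14. NANOG read 0.84 and 1.32, and LIN28A (0.50 and -0.06), DPPA4 (-0.65 and 0.88), PRDM14 (-0.21 and 0.05) and ZFP42 (-0.51 and -0.22) were not detected. Among 15 germ cell genes ZP3, a protein of the egg coat, read 4.90 and 5.03 and was the only member past 8-fold. ACR read 3.71 and 2.73, PRAME 3.14 and 2.85, SYCP3 1.83 and 1.55 and PIWIL2 1.58 and 2.03. DAZL (1.27 and 0.61), DDX4 (-0.31 and 1.25) and PRM2 (0.76 and 2.37) were split, while TEX15 (-0.14 and 0.72), STRA8 (-0.11 and 0.02), SYCP1 (-0.39 and -0.12) and PRM1 (-0.05 and -0.54) were at the random level.

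**Figure D2:**
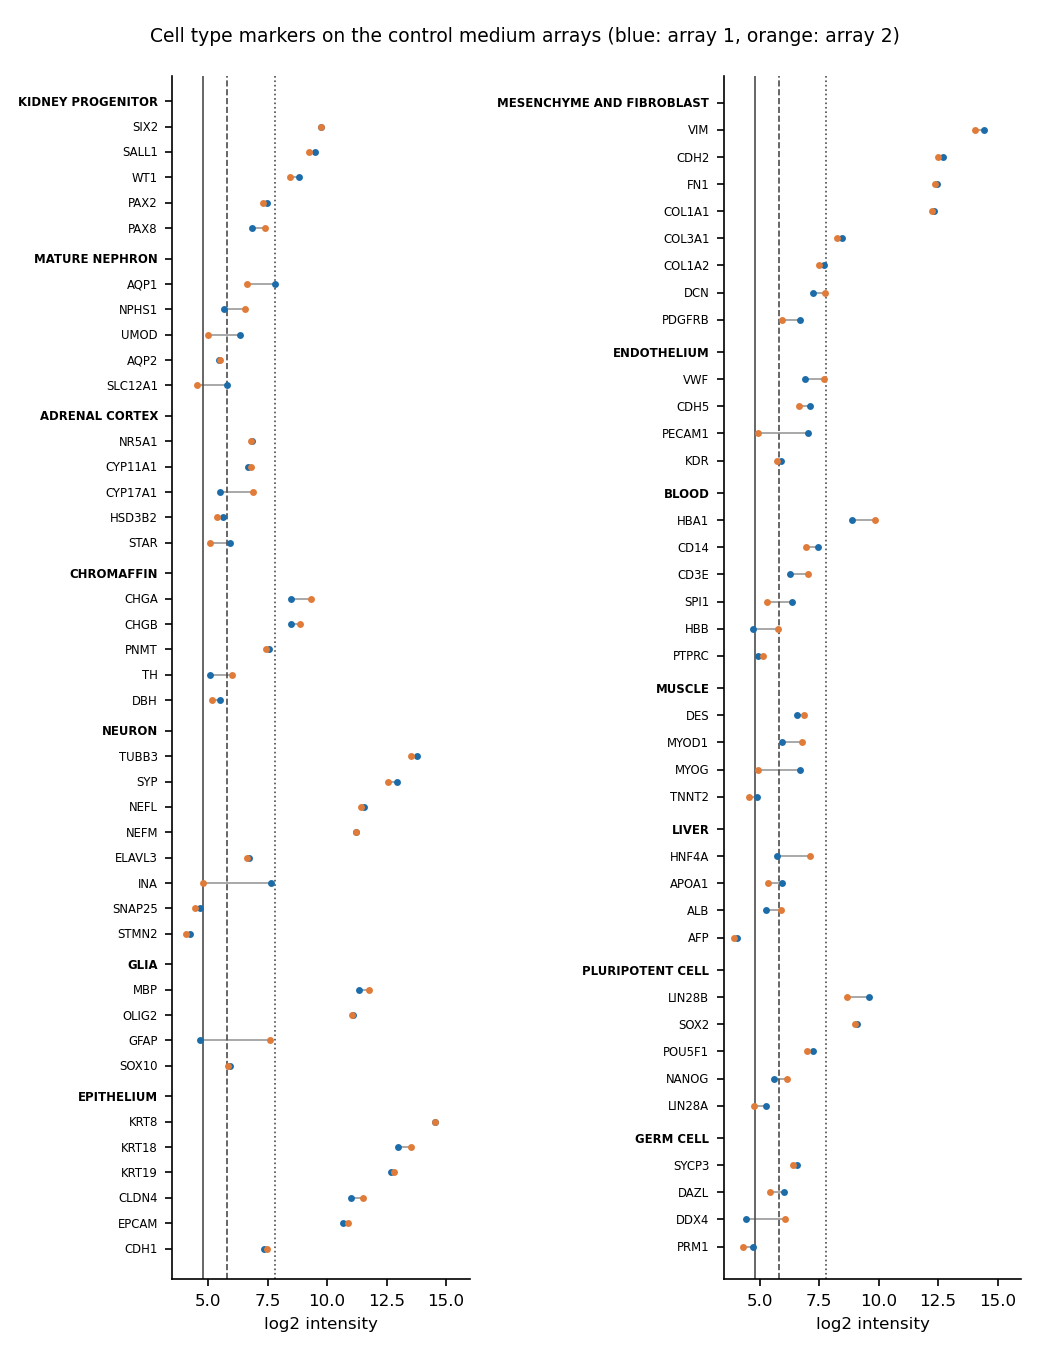
Log2 intensity of each cell type marker on control medium array 1 (blue) and array 2 (orange), joined by a grey line, with the random control set (solid), 2-fold (dashed) and 8-fold (dotted) levels; a few markers that the counts include are not drawn. Kidney progenitor, epithelial and mesenchymal markers were all detected, at 7 of 7, 6 of 6 and 8 of 8, while 1 of 6 mature nephron and 0 of 4 liver markers were. In the longer lists of these 5 kinds, in the same order, 22 of 22, 20 of 21, 17 of 20, 4 of 21 and 2 of 11 were detected. Among all genes the share was 69.4%.

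HOX genes, which mark position along the body axis, were almost all above background. Of 39 genes 38 (97.4%) were detected and 34 (87.2%) passed 8-fold, with a median of 5.20 log2 units over random. HOXA10 read 8.37 and 8.61 over random, HOXB9 8.06 and 7.05, HOXD11 7.69 and 7.31 and HOXD10 7.50 and 6.95. At the low end HOXB8 read 3.11 and 2.52, HOXB1, of the hindbrain, 1.93 and 2.45, and HOXC12 1.92 and 2.41. HOXD12, a gene of the limb bud, was the exception at -0.18 and 0.45. Paralogue groups 9 to 11, used in the trunk and kidney, had the highest median (6.43 log2 units over random, 10 of 10 past 8-fold). Groups 1 to 3 had a median of 3.76, groups 4 to 8 of 5.20 and groups 12 and 13 of 3.97. By cluster, HOXA held 10 of 11 genes past 8-fold, HOXB 8 of 10, HOXC 8 of 9 and HOXD 8 of 9.

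**Figure D3:**
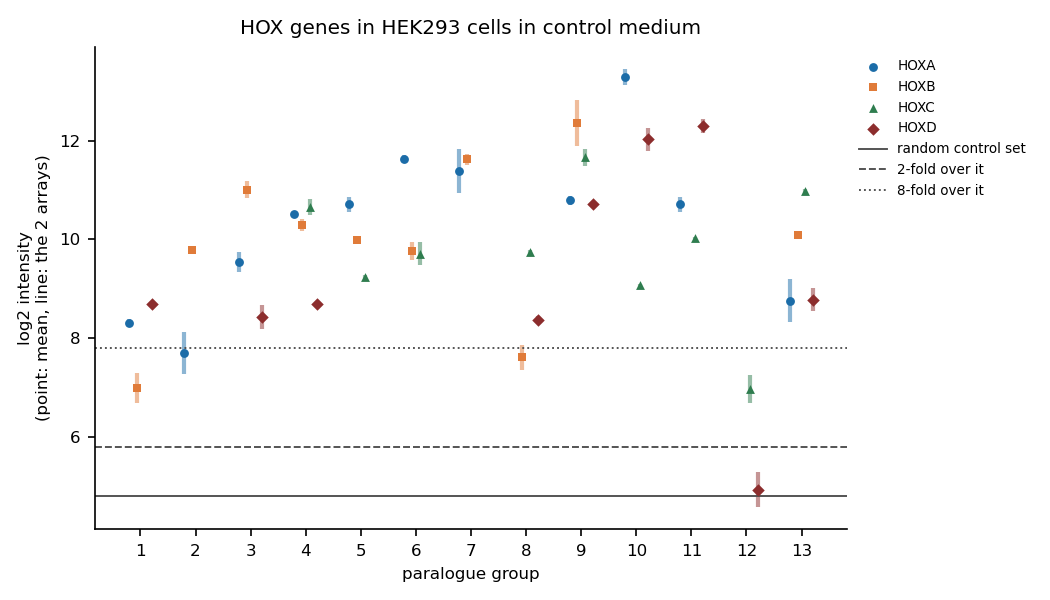
Mean log2 intensity of each HOX gene in control medium (point) with the 2 arrays as the ends of the line, by paralogue group (horizontal axis) and cluster (colour and shape). Horizontal lines mark the random control set and the levels 2-fold and 8-fold over it. HOXD12 alone lies at the random level, and all 10 genes of groups 9 to 11 lie past the 8-fold line.

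Promoter sequence is a property that the choice of arrays did not use. In vertebrates the promoters of broadly used genes are often rich in the dinucleotide CG, and those of many tissue-specific genes are poor in it. The 250 bases upstream of each start site came from RefSeq (GRCh38.p14) and were found for 14770 of the 18418 protein-coding genes (80.2%). For a gene with several promoters, CG count and GC content were averaged over them. Among all 35116 promoters of that table the median was 11 CG per 250 bases, 32.4% had 20 or more and 14.7% had under 2. Detection followed the CG count: 26.2% of the 1022 genes with under 2 CG were detected, 38.7% with 2 to under 5, 60.8% with 5 to under 10, 81.8% with 10 to under 20, and 88.4% of the 6290 with 20 or more. At 8-fold the shares ran from 7.83% to 72.4%. Median GC content rose over the same classes from 40.0% to 70.4%, and the part of each was not tested. Across genes the Spearman correlation of level with CG count was 0.45 and with GC content 0.36, a description over genes that share both arrays. The 4 promoters that follow hold a detected and an undetected gene with many CG and a detected and an undetected gene with 1 CG, so that exceptions are seen beside the rule. They are written 5′ to 3′ on the gene's strand up to the base before the start site, with each CG in capitals.
SYP, chrX:49200194-49200443, minus strand: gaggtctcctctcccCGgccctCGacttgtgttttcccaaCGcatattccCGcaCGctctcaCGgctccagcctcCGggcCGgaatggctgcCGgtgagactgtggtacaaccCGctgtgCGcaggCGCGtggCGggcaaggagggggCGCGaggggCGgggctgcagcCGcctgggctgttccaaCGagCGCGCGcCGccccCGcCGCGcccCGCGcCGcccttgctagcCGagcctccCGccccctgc
KRT8, chr12:52926470-52926719, minus strand: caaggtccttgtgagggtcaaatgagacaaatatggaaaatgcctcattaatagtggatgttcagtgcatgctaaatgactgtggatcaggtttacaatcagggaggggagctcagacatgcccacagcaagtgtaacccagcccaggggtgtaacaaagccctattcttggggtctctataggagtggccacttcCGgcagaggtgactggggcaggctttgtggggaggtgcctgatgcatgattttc
HOXD12, chr2:176099545-176099794, plus strand: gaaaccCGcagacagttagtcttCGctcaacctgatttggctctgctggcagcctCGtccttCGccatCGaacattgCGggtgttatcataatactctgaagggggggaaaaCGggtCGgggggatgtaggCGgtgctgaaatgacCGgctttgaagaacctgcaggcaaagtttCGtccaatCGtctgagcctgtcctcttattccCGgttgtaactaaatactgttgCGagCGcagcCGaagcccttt
AFP, chr4:73435971-73436220, plus strand: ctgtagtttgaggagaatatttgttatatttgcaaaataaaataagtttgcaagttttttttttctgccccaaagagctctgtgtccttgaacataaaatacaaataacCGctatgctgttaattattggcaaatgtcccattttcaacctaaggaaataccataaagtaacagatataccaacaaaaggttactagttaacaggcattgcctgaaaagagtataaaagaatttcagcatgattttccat

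SYP and AFP fall with the majority of their classes. The SYP promoter holds 31 CG and its gene read 12.92 and 12.56 on the log2 intensity scale. The AFP promoter holds 1 CG and its gene read 4.06 and 3.94. KRT8, with 1 CG in the stretch, read 14.52 and 14.55, and HOXD12, with 16 CG, read 4.57 and 5.29. The motif TATAAA, searched on both strands and not overlapping a CG, was found in 10.7% of all promoters of the table and, among these 4, in that of AFP. A match of letters is not a bound site, and the stretch may not hold the start used in these cells.

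Receptors as an area were detected in 186 of 284 genes (65.5%), a little under the share of all genes, and passed 8-fold in 114 (40.1%). The classes differed widely. Wnt receptors and co-receptors were detected in 22 of 23, with 17 (73.9%) past 8-fold and a median of 4.40 log2 units over random. PTK7, a pseudokinase of planar polarity, read 7.62 and 7.62 over random. The co-receptors LRP5 and LRP6, which start the beta-catenin signal with a Frizzled, read 7.19 and 6.98, and 7.16 and 6.89. RYK, an atypical Wnt receptor, read 7.17 and 6.78. Every Frizzled except FZD6, which was split at 1.79 and 0.14, was detected, FZD3 being the lowest at 2.54 and 2.52. The R-spondin receptors were weak, LGR5 at 3.17 and 1.24 and LGR4 at 1.45 and 2.64.

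Signals of some Wnt ligands were also above background before Wnt3a was given. Of 21 ligand and secretion genes 16 (76.2%) were detected and 11 (52.4%) passed 8-fold. These shares are near those of all genes, 69.4% and 48.5%. WLS, which escorts Wnt proteins to the surface, read 7.51 and 7.22 over random. WNT10B read 5.38 and 6.25, WNT3 5.69 and 5.93 and WNT5B 5.59 and 5.91, each above 8-fold on both arrays. PORCN, WNT3A, WNT4, WNT6, WNT7B and WNT11 were detected as well. WNT5A (0.97 and 1.44) and WNT7A (0.88 and 1.24) were split, and WNT2 (0.01 and 0.74), WNT8A (0.80 and -0.53) and WNT8B (0.91 and -0.32) were not detected. Secreted antagonists were detected nearly as often, in 10 of 14 (71.4%), but 1 (7.14%) passed 8-fold. That was NOTUM, a lipase that inactivates Wnt proteins, at 4.06 and 5.08. SOST read 3.03 and 2.85 over random, SFRP2 3.01 and 2.77 and SFRP1 2.52 and 2.99. WIF1 (2.01 and 0.97) and DKK4 (1.10 and -0.20) were split, and SFRP5 (0.69 and 0.64) and CER1 (-0.52 and 0.36) were not detected. Inside the cell 34 of 35 pathway genes were detected and 29 (82.9%) passed 8-fold, with a median of 6.71. The casein kinase CSNK1E read 10.13 and 9.75 over random and GSK3A 10.04 and 9.67. BCL9L, a beta-catenin co-activator, read 9.22 and 9.27 and the short Groucho protein TLE5 9.21 and 8.61. PYGO1 (2.79 and 2.35), TNKS (3.0 and 1.68) and TNKS2 (2.67 and 1.46) were lowest among those detected. APC, the scaffold of the destruction complex, was split at 0.02 and 1.23, while AXIN1, GSK3B, CTNNB1, TCF7L2 and LEF1 were detected.

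**Figure D4:**
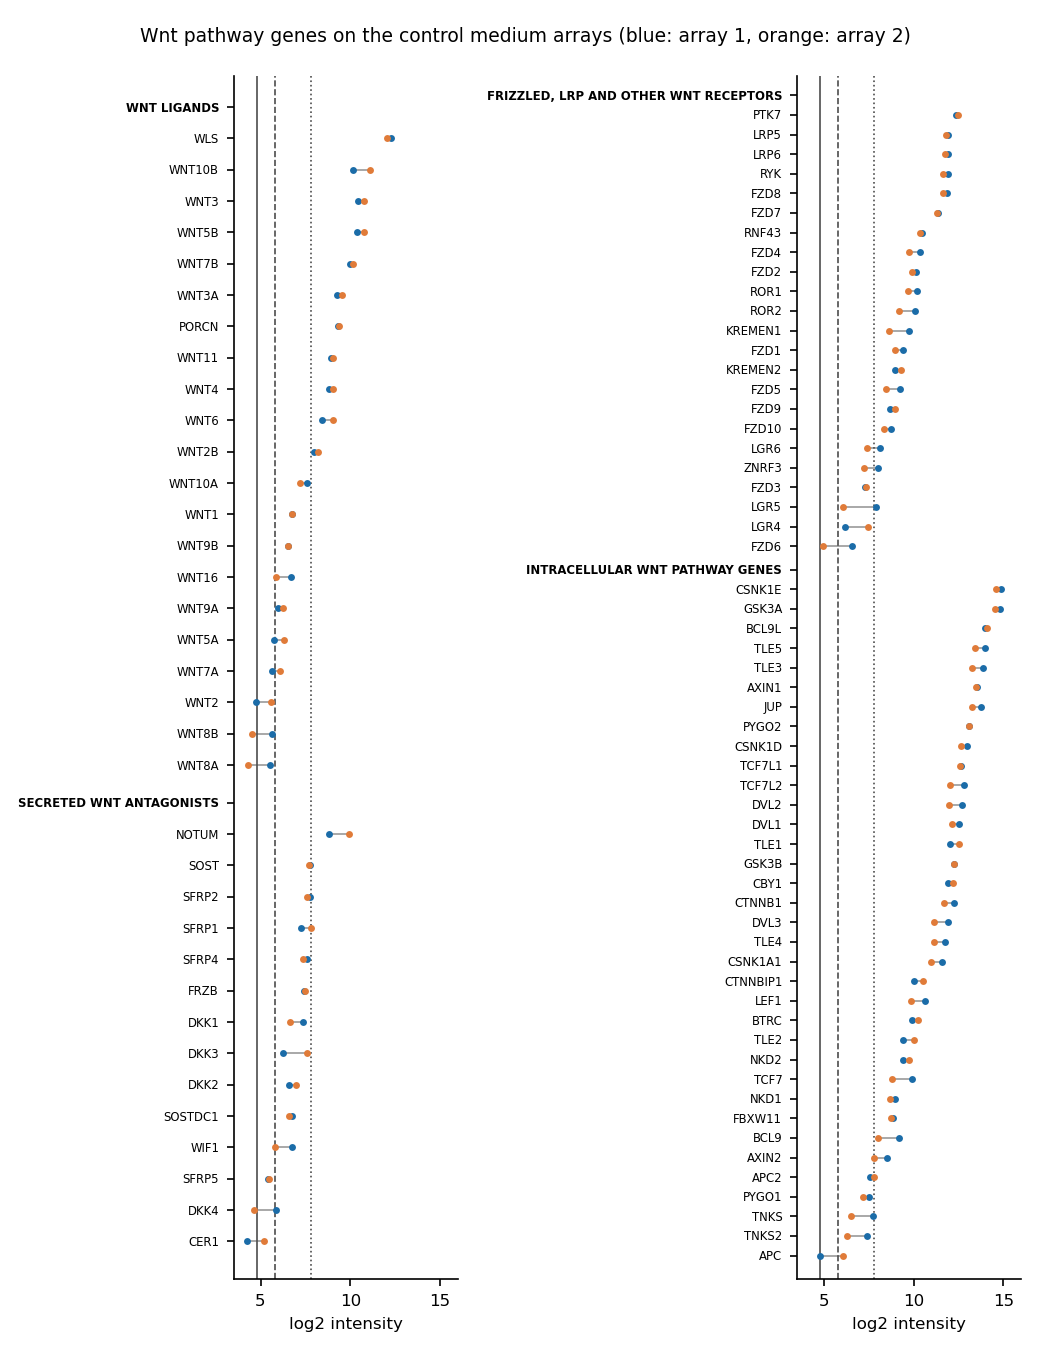
Log2 intensity of Wnt ligand and secretion genes, secreted antagonists, receptors and intracellular pathway genes on control medium array 1 (blue) and array 2 (orange), with the random control set (solid), 2-fold (dashed) and 8-fold (dotted) levels. Of the intracellular genes 29 of 35 lie past the 8-fold level on both arrays, and of the secreted antagonists 1 of 14.

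Receptor tyrosine kinases were detected in 36 of 50 (72.0%), near the share of all genes. EPHB4, an ephrin receptor, read 9.32 and 8.99 over random, DDR1, a collagen receptor, 9.22 and 8.35, EPHA2 8.28 and 7.52 and FGFR1 7.31 and 6.91. EGFR, ERBB2, IGF1R, INSR and FGFR4 were detected, although not every probe set of EGFR was. MET, the receptor of hepatocyte growth factor, was split at 2.70 and 0.83, as were ALK (0.31 and 1.67) and ERBB4 (1.20 and 0.38). INSRR (0.47 and 0.69), EPHA5 (0.13 and 0.78) and ROS1 (0.36 and -0.43) were not detected, nor were EPHA3, EPHA8 and MUSK. TGF-beta and BMP receptors were detected in 13 of 14. ACVR2B read 6.34 and 6.57 over random, ACVR1B 6.52 and 5.69, TGFBR1 5.28 and 4.21 and TGFBR3 5.06 and 4.31. BMPR1B read 1.96 and 2.74, ACVR2A 2.29 and 1.96 and AMHR2 1.54 and 1.28, and ACVR1C was not detected (0.26 and 0.57). Of 18 Notch and Hedgehog genes 17 were detected and 13 passed 8-fold. SMO, which carries the Hedgehog signal, read 7.80 and 7.93 over random, the Notch ligands JAG2 and JAG1 7.54 and 7.55, and 6.95 and 6.24, and NOTCH4 6.16 and 6.26. IHH (1.95 and 2.23), HHIP (2.24 and 1.31) and DLL4 (1.79 and 1.25) were low, and DHH was not detected (-0.29 and 0.80).

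Nuclear receptors were detected in 33 of 48 (68.8%). The orphan receptors NR2F2 and NR2F6 read 8.66 and 8.43, and 7.95 and 8.30 over random. NR1H2, an oxysterol receptor, read 7.47 and 7.39 and ESRRA, a regulator of mitochondrial genes, 7.07 and 7.28. The glucocorticoid receptor NR3C1, VDR, RARA and RXRA were detected, and ESR1 was detected by some of its probe sets. PGR (1.46 and 0.65), NR2E1 (1.59 and 0.40) and ESRRG (-0.26 and 1.29) were split. RARB (0.25 and 0.26), the bile acid receptor NR1H4 (0.08 and -0.17), HNF4G (0.01 and -0.19) and RORB (-0.40 and 0.20) were at the random level, and THRB, RXRG, ESR2, NR0B2, NR1D2 and NR5A2 were not detected.

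Receptors for amines and opioids were seldom above background, which does not show them absent. HEK293 cells often serve as hosts for such receptors. Of 39 genes 15 (38.5%) were detected and 5 (12.8%) passed 8-fold, with a median of 0.85 log2 units over random. ADRA1B read 5.39 and 4.86 over random, DRD4 4.48 and 4.14 and ADRA2C 3.51 and 4.63. CHRM3 was detected, though not by all its probe sets. ADRB1 was split at 1.78 and 0.14, as were OPRM1 (-0.32 and 2.03), OPRK1 (0.55 and 1.07), OPRL1 (1.05 and 0.48), HTR2B (1.39 and 0.63), HTR4 (0.20 and 1.39), HTR6 (1.85 and 0.32) and HTR7 (1.51 and 0.19). The serotonin receptors HTR1B (-0.52 and 0.49), HTR1F (-0.81 and 0.04) and HTR2C (-0.13 and -0.90) and the muscarinic receptor CHRM5 (-0.24 and -0.65) were at the random level. CHRM1, CHRM2, DRD1, HRH1, HTR1A and HTR2A were not detected.

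Receptors for nucleotides, lipids, proteases and peptides were detected in 30 of 54 (55.6%), and 15 passed 8-fold. CXCR4, the chemokine receptor, read 8.81 and 8.53 over random. P2RY11, a receptor of ATP, read 6.48 and 7.09, LPAR2 5.58 and 5.69 and S1PR1 5.46 and 5.05. The adenosine receptors ADORA1, ADORA2A and ADORA2B and the thrombin receptor F2R were detected, and ADORA3 was not (-0.63 and -0.70). P2RY1 was split at 1.81 and 0.82, and 13 more genes were split too, from RAMP2 at 2.16 and 0.84 to AGTR2 at 1.45 and -0.40. The angiotensin receptor AGTR1 read -0.11 and -0.23, CALCRL, the receptor of adrenomedullin and CGRP, 0.42 and -0.52, and SSTR1 -0.18 and 0.36. GLP1R, CALCR, CCR7, P2RY12, AVPR1B and SSTR3 were not detected. The G protein alpha subunits behind these receptors were detected in 10 of 15. GNAS, which stimulates adenylyl cyclase, read 10.09 and 9.85 over random, GNAI2, which inhibits it, 9.47 and 8.99, GNA11, which acts on phospholipase C, 8.13 and 7.99 and GNAZ 5.91 and 5.65. GNA15 (0.28 and -0.30), a subunit of blood cells, and GNA14 (-0.17 and -0.56) were at the random level, and GNAI1 (0.92 and 1.83), GNA13 (2.11 and 0.63) and GNAT2 (1.12 and 0.90) were split.

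Of 38 Toll-like and cytokine receptors 20 (52.6%) were detected and 14 passed 8-fold. IFNGR2, a chain of the interferon-gamma receptor, read 8.47 and 7.62 over random, the death receptor TNFRSF10B 7.47 and 6.75, IL10RB 6.57 and 6.54 and IL4R 6.49 and 6.58. Among Toll-like receptors TLR1 alone was detected. TLR3 (0.00 and -0.15), TLR7 (-0.12 and -0.29) and TLR9 (-0.37 and 0.00), the sensors of nucleic acid in endosomes, were at the random level, TLR5 (0.17 and 1.5) and TLR10 (0.63 and 1.35) were split, and TLR2, TLR4, TLR6 and TLR8 were not detected. LIFR read -0.15 and -0.44. IL2RG (0.81 and 1.97), IL1R1 (0.55 and 2.02), PRLR (1.07 and 0.78) and OSMR (1.32 and 0.46) were split. Of 28 sensors and adaptors of the cytosol 22 (78.6%) were detected. IRF3, the factor that switches on interferon genes, read 8.20 and 8.45 over random, IKBKG 7.75 and 8.10, RELA 7.98 and 7.11 and MAVS, the mitochondrial adaptor of RNA sensors, 6.66 and 7.31. The cytosolic DNA sensor CGAS read -0.06 and -0.05, AIM2 0.10 and -0.54 and the inflammasome protease CASP1 0.39 and -0.15, and the RNA sensor RIGI was not detected. STING1, the adaptor that acts after CGAS, was detected. NLRP3 (2.04 and 0.30) and DHX58 (1.28 and -0.53) were split.

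Core signalling genes were close to complete. Of 29 RAS, ERK and PI3K genes 28 were detected and 21 passed 8-fold. HRAS read 10.17 and 10.15 over random, MAP2K2 8.71 and 8.63, AKT1 8.87 and 8.21 and RPTOR, a subunit of the mTOR complex, 8.27 and 8.29. PIK3CA (2.20 and 1.83) and RICTOR (2.25 and 1.76) were low, and PIK3CG, the PI3K subunit of white cells, was split at 0.41 and 1.21. All 21 SMAD and Hippo genes were detected and 19 passed 8-fold. TEAD3, a DNA-binding partner of YAP, read 9.55 and 9.60 over random, SMAD7, the inhibitory SMAD, 9.11 and 8.74, TEAD4 7.95 and 8.28 and NF2 7.96 and 7.45. SMAD9 read 3.17 and 3.41, SMAD1 3.11 and 3.38, LATS1 4.0 and 2.31 and STK3 2.02 and 2.33.

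Of 29 cell cycle regulators 27 (93.1%) were detected and 21 passed 8-fold. CDKN1A (p21), an inhibitor of cyclin-dependent kinases, read 9.98 and 10.37 over random, CDKN2A, which codes for p16 and ARF, 9.11 and 9.48 and CDK4 9.96 and 9.64. The cyclins CCND1 and CCNB1, which drive division, were detected in the same RNA. CDKN1B (p27) read -0.32 and -0.56, MDM4 2.27 and 1.67 and RBL1 2.16 and 1.78. CCNE2 was split at 2.56 and 0.80, and RB1 was detected by some of its probe sets. Voltage-gated sodium and calcium channels were detected in 7 of 19 (36.8%). CACNA1H, a low-threshold calcium channel, read 7.44 and 7.82 over random and CACNA1G, of the same class, 4.39 and 4.58. CACNA1E read 3.44 and 2.60 and CACNA1B 2.55 and 3.33. SCN1A (-0.09 and -0.42), SCN2A (-0.21 and -0.17) and SCN4A (-0.52 and -0.50), the channels of brain and muscle action potentials, and CACNA1S (-0.14 and -0.37) were at the random level. CACNA1C (1.87 and 0.71), SCN3A (-0.36 and 1.33) and SCN9A (-0.29 and 1.09) were split.

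Chromatin genes were the area most fully present, with 167 of 181 (92.3%) detected and 146 (80.7%) past 8-fold. Of 32 histone lysine methyltransferases 30 were detected. SUV39H1, which trimethylates lysine 9 of histone H3, read 9.50 and 9.71 over random, SETD1A 8.10 and 7.50, KMT2B 7.77 and 7.42 and EHMT2 (G9a) 7.52 and 6.97. KMT5A, KMT5B and KMT5C, which methylate H4 lysine 20, were all detected. PRDM1 (2.01 and 1.21) and the meiotic PRDM9 (1.04 and 1.79) were weak, and SETDB2 (-0.24 and 0.23) and the muscle gene SMYD1 (-0.69 and 0.33) were not detected. Demethylases were detected in 18 of 19. KDM1A (LSD1) read 8.93 and 8.49 over random, KDM2A 8.58 and 8.65, PHF8, which removes H4 lysine 20 monomethylation, 7.77 and 7.65 and KDM5C 7.84 and 7.54. KDM4C (2.96 and 2.89), JMJD1C (2.12 and 2.74) and KDM4D (2.11 and 2.04) were low, and KDM7A was at the random level (0.24 and -0.02). Of 9 arginine methyltransferases 8 were detected, led by PRMT1 at 10.43 and 10.27, CARM1 at 8.93 and 8.44, PRMT2 at 8.45 and 8.19 and PRMT5 at 8.32 and 7.87. PRMT8, known as a brain enzyme, was split at -0.17 and 2.13, and PRMT3 read 3.24 and 1.40.

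In the DNA methylation list 12 of 15 were detected. DNMT1, the maintenance enzyme, read 8.67 and 8.46 over random, its partner UHRF1 8.28 and 7.40, MBD1 8.28 and 8.12 and MBD3 7.64 and 7.51. TET1 read 0.22 and 0.05 and TET2 -0.33 and 0.71, both not detected, whereas TET3 was detected. TDG, the glycosylase that acts after TET enzymes, read 1.74 and 1.75, and the germ cell cofactor DNMT3L 0.58 and -0.06. Of 18 deacetylases 16 were detected, among them HDAC3 at 9.76 and 9.76, SIRT2 at 8.94 and 8.92, SIRT7 at 8.02 and 8.52 and HDAC1 at 8.32 and 8.19. SIRT4 read 3.20 and 3.37, SIRT1 2.90 and 1.53, HDAC4 was split at 1.93 and 0.58, and HDAC9 was not detected (0.06 and 0.82). All 10 acetyltransferases were detected. KAT2A (GCN5) read 7.79 and 7.56, EP300 7.52 and 6.63, KAT8 7.04 and 7.01 and KAT5 6.26 and 6.04. KAT2B (PCAF), the close relative of KAT2A, read 1.90 and 2.54. CREBBP, the paralogue of EP300, read 3.77 and 2.85.

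Remodelling complexes were detected in 27 of 30 genes, with 23 past 8-fold. The SWI/SNF core subunits SMARCC2 and SMARCB1 read 9.89 and 9.44, and 9.41 and 9.24 over random, and the ATPase SMARCA4 (BRG1) 8.77 and 8.43. CHD1 (2.28 and 0.70) and DPF3 (1.58 and 0.77) were split, CHD2 read 1.71 and 1.13, and CHD9 was not detected (0.74 and 0.57). Of 27 Polycomb genes 26 were detected and 23 passed 8-fold. RBBP7, a histone-binding subunit, read 9.09 and 8.96 over random, PCGF2 9.06 and 8.15, RING1 7.68 and 7.82 and CBX6 7.46 and 7.92. The PRC2 core subunit SUZ12 was lower, at 3.57 and 3.20, BMI1 read 3.72 and 2.92 and L3MBTL1, a reader of monomethylated histones, 2.11 and 1.92. AEBP2 was split at 1.16 and 0.41. Histone variants and chaperones had the highest median of the 40 lists, 7.85 log2 units over random, with 20 of 21 past 8-fold. H3-3A read 9.65 and 9.51, MACROH2A1 9.39 and 9.53, SSRP1, a subunit of FACT, 9.43 and 9.26 and DAXX, the H3.3 chaperone, 8.76 and 9.01. ATRX, the partner of DAXX, was the member at the random level.

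**Figure D5:**
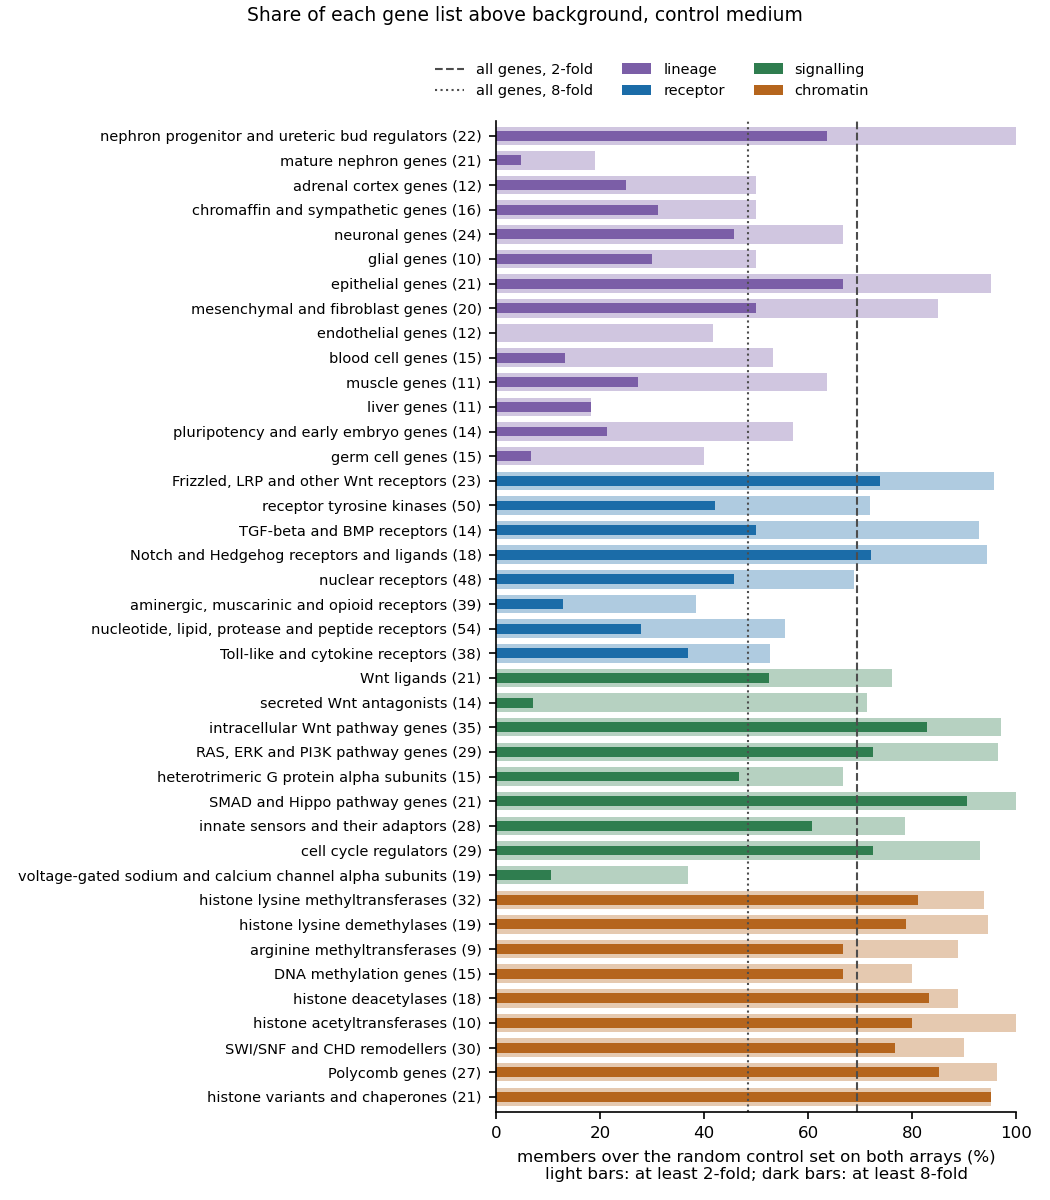
Percentage of the members of each of 40 gene lists (number of genes in brackets) that lay at least 2-fold (light bars) or 8-fold (dark bars) over the random control set on both control medium arrays, coloured by area. Dashed and dotted vertical lines give the same shares over all genes, 69.4% and 48.5%. Chromatin lists lie to the right of both lines, and mature nephron, liver, amine receptor and channel lists lie to their left.

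Over the 40 lists together 655 of 887 distinct genes (73.8%) were detected, 101 were split and 131 were not detected. Lineage genes were detected in 134 of 224 (59.8%), signalling genes in 175 of 211 (82.9%). Detection also followed how often a gene was probed: 59.1% of genes with 1 probe set, 76.7% with 2, 83.4% with 3 and 85.9% with 4 or more were detected. The part of probe set number in the differences between lists was not tested. Of 9447 detected genes with several probe sets, 2492 (26.4%) had at least 1 that was not detected or was split. Among the genes given above this holds also for GRHL2, PDGFRB, CACNA1G and GNAS.

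A few genes differed far more between the control arrays than the rest. DNAI4, of motile cilia, read 5.02 and 9.45 on the log2 intensity scale, SPATA42 4.32 and 8.26, PRDM10-DT 4.64 and 8.37 and PXT1 5.01 and 8.60. LBX1, a homeobox factor, read 6.42 and 10.12, and GPX7 8.0 and 4.60. The first 5 of these were higher on array 2 and GPX7 on array 1. Among the 11453 genes past 8-fold the difference also followed gene length on the genome. The median difference, array 1 minus array 2, was -0.12 log2 units in the shortest of 5 equal classes (median span 2.01 kb) and 0.08 in the longest (99.2 kb). Its size is under the median SD between replicates, and its part in single genes was not tested.

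The baseline calls carried over to the other 4 arrays. Of the 16378 genes detected in control medium 15622 (95.4%) lay at least 2-fold over random on all 4 arrays with Wnt3a medium, and of the 4554 not detected 3143 (69.0%) lay under it on all 4. From control to Wnt3a medium 128 genes turned from detected to not detected and 263 the other way, and with SET8 shRNA and Wnt3a medium 154 and 289. Among the 887 distinct list members the call turned over in 30 genes in either comparison. The counts before it are over all 23595 genes, each for a single comparison and direction, so they give no like share for the 30. These 30 are not read as a result about the lists. No test stands behind these counts, and the control medium replicates alone disagreed on the call of 2663 genes.

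Wnt3a medium was set against control medium by limma over 23808 probe sets with control shRNA on both sides. None passed a Benjamini-Hochberg adjusted p of 0.05 (0% higher and 0% lower), with a smallest adjusted p of 0.0575, while 510 (2.14%) had an unadjusted p under 0.05. Of the 531 list genes tested none was called. The fit had no block, although deviations of same-numbered control and Wnt3a arrays correlated at 0.748. With a replicate block over all arrays no probe set was called either. With an intensity trend in the spread 2 probe sets were called, and 3 with a replicate block in which the SET8 shRNA numbers are crossed, an alternative chosen after seeing the data. LMO2, a LIM-only transcription cofactor, read 6.86 and 6.84 on the log2 intensity scale on the control arrays and 9.71 and 9.70 with Wnt3a medium, a difference of 2.85 ± 0.22 (SE, limma adjusted p = 0.0575). NKD1, a feedback inhibitor of Wnt signalling, read 8.97 and 8.70, then 11.61 and 11.63 (2.79 ± 0.25, limma adjusted p = 0.0911). DKK1, a secreted Wnt antagonist, read 7.39 and 6.66, then 9.53 and 9.64 (2.56 ± 0.29, limma adjusted p = 0.318). In each of these 3 both Wnt3a arrays lay above both control arrays, but the difference missed the threshold. The test kept probe sets above the array median on at least 2 of the 6 arrays. LMO2 and DKK1 lay under that median on both control arrays and were kept only through arrays with Wnt3a medium. COL1A2, SOD3 and CD4, given next, were kept only through the control arrays, where they were high. The lowest by unadjusted p were COL1A2 (8.28 and 7.87 in control medium on the probe set with the smallest p, 5.29 and 6.28 in Wnt3a medium), SOD3 (7.88 and 8.68, then 6.56 and 6.33) and CD4 (8.19 and 8.06, then 6.64 and 6.89), with a limma adjusted p near 1 in each.

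SET8 shRNA with Wnt3a medium was compared with the same control arrays, so both shRNA and medium differ. Of 23808 probe sets 6 were called higher (0.0252%) and 6 lower (0.0252%) at a limma adjusted p under 0.05, and 2512 (10.6%) had an unadjusted p under 0.05. LMO2 was the only list member called. The 12 probe sets belong to 9 genes, since 3 are of OAS1 and 2 of PIANP. CALCB, a calcitonin gene-related peptide, read 5.45 and 5.94 on the control arrays, 7.40 and 8.07 with Wnt3a medium alone and 10.03 and 9.62 with SET8 shRNA, a log2 difference from control of 4.13 ± 0.32 (SE, limma adjusted p = 0.0465). TBXT (brachyury), the mesoderm factor, was not detected in control medium at 5.46 and 5.35. With Wnt3a medium alone TBXT was detected and read 7.93 and 7.42. With SET8 shRNA and Wnt3a medium it read 8.67 and 8.18 (3.01 ± 0.29 from control, limma adjusted p = 0.0476). ZNF277 on its called probe set read 5.55 and 5.80, then 6.92 and 7.15 with Wnt3a medium alone and 7.90 and 7.88 with SET8 shRNA. Only through the SET8 shRNA arrays did this probe set pass the filter on dim probe sets. Another probe set of the gene was detected in control medium. CALCB and TBXT lay under the array median on both control arrays and on a Wnt3a array each. They too needed the SET8 shRNA arrays to pass that filter. On a called probe set PIANP read 8.72 and 8.07, then 9.67 and 9.37 with Wnt3a medium alone and 11.45 and 11.30 with SET8 shRNA. In the same order LMO2 read 6.86 and 6.84, 9.71 and 9.70, and 8.98 and 8.89. LMO2 passed the filter only through arrays with Wnt3a medium, with either shRNA.

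Of the genes that fell, OAS1, an antiviral enzyme, read 8.59 and 9.0 in control medium on the called probe set with the smallest p and 5.62 and 5.17 with SET8 shRNA and Wnt3a medium, a fall of 3.40 on the log2 scale (SE 0.28, limma adjusted p = 0.0465). CPLX1 (complexin), a synaptic vesicle protein, read 10.67 and 11.04, then 8.27 and 8.06 and fell by 2.69 (SE 0.27). OLFM1, a secreted glycoprotein of the nervous system, read 10.30 and 10.47, then 8.27 and 7.87, and TMEM121B 12.17 and 12.12, then 9.92 and 10.03. With control shRNA in Wnt3a medium OAS1 read 8.12 and 8.39, and CPLX1 10.58 and 11.06. The count of 12 depended on the setting: with a block for the replicate number, or with no filter on dim probe sets, the count was 0, and with only the 4 arrays of the comparison it was 230. With the SET8 shRNA numbers crossed in the block, tried after seeing the data, it was 792. It was 0 without either of the SET8 shRNA arrays, 22 without control medium array 1 and 5 without control medium array 2.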

How the data were processed

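Per the submitters' processing notes the arrays were summarised with RMA (robust multi-array average), whose version is not given in the sources used here. Values were deposited by the authors as 1 linear intensity per probe set and array, identical in the series value table (largest difference 0), which was taken to log2 with no offset. The deposited standard error column has no stated scale and was not used. Of 45033 probe sets 38916 (86.4%) were renamed by Entrez ID through RefSeq (GRCh38.p14), and 2086 without a gene name were left out of the gene counts. Array positions are hg18 per the file headers. The probe set with the highest mean over 6 arrays stood for a gene.

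Detection has no test. The 2 comparisons used limma 3.58.1 in R 4.3.3 (lmFit, eBayes, no block) on all 6 arrays, for 23808 probe sets above the array median in at least 2 arrays, with Benjamini-Hochberg adjustment over them; the code was tested on simulated data. They share the control medium arrays. With 2 arrays against 2 the smallest exact permutation p, 0.333, misses any usual threshold, and no such test was run.

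Values are given for the 20 brightest genes, the 4 highest, 4 lowest and split members of each list, cell type markers, 6 genes that differ most between control arrays, and per comparison up to 5 called genes in each direction or, with none called, 3 by unadjusted p. Of the split peptide receptors only some are given, and genes outside the rule, such as KMT5A, HBA1 and COX6A2, were chosen otherwise or with their values seen. Gene lists and the arrays described were chosen with earlier results of these data known, and the 8-fold level after seeing them. Several genes that the rule selects are not reported here, and the counts keep them. The number of arrays limits the precision.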

Additional observations from a re-analysis of the deposited data

How the results depend on the processing

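The number of detected genes stayed within 1.5 times of 16378 under all 9 alternatives, from 11453 at the 8-fold level (chosen after seeing the data) to 17808 at 1.5-fold, and that of list members from 458 to 716 against 655. Single lists moved more: at 4-fold 12 of 48 lists and families changed by over 1.5 times, and at 8-fold 21. For Wnt3a against control medium 0 probe sets were called, 2 with an intensity trend in the spread, and 0 when any array was left out. For SET8 shRNA with Wnt3a medium against control the count of 12 became 0 with no filter on dim probe sets, 0 with a filter at 2-fold over random, 230 with only the 4 arrays compared, 31 with an intensity trend, 6 after a further quantile normalisation and 8 with each array centred on its median, and ran from 0 to 22 with an array left out. The cause was not tested. Where a group keeps 1 array, that array is assumed to vary like the others. Deviations of same-numbered arrays correlated at 0.748 between control and Wnt3a medium, so these 4 arrays moved with their numbers, and at -0.294 between each of these groups and SET8 shRNA, so the numbers were not taken to pair all 6 arrays. With the replicate block 0 probe sets were called in either comparison. With the SET8 shRNA numbers crossed in the block, tried after seeing the data, 3 were called for Wnt3a and 792 for SET8 shRNA with Wnt3a medium. With 3 probes per probe set and 2 arrays, a level near the random set is not resolved.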
